A study of Homo sapiens with 12 samples.

Results

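The comparison of entinostat with DMSO after 24 h in HD-MB03 cells takes in 6 of the 12 arrays of the series, 3 per group, chosen by their sample titles. HD-MB03 is an established human cell line from a group 3 medulloblastoma, a tumour of the cerebellum, and carries an amplified MYC gene. The cells were grown in RPMI medium with fetal calf serum and received either 1 µM entinostat for 24 h or, as control, the DMSO solvent alone for 24 h, and the labels call the control cells untreated. All cultures share the 1 cell line and its amplified MYC, so the spread between arrays is that of 3 replicate cultures of 1 line and not of several tumours. Total RNA was labelled with biotin and hybridised to Affymetrix Human Genome U133 Plus 2.0 arrays, on which a gene is read by 1 or several probe sets. The study used the series to look for pathways that change under entinostat, and the question here is which genes had a different RNA level after 24 h. Of 54613 probe sets tested, those with a single gene symbol stood for 19775 genes, and each gene was taken at its probe set of the highest mean level. Levels are given as intensities on array 1, 2 and 3 of each group, with the DMSO arrays first, and changes as log2 fold changes of entinostat over DMSO with their standard error (SE) and Benjamini-Hochberg adjusted p from limma over all probe sets, called at under 0.05.

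Histone deacetylases remove acetyl groups from lysines of histones and of other proteins. The class I enzymes HDAC1, HDAC2, HDAC3 and HDAC8 sit in the nucleus, all but HDAC8 in corepressor complexes such as Sin3, NuRD, CoREST and NCoR that are brought to promoters and enhancers. Inhibitors of the benzamide class such as entinostat block class I enzymes, after which acetylated histones accumulate and the RNA of many genes rises while that of others falls.

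The 6 arrays were close in overall level, with medians between 80.6 and 81.8 and 75th percentiles between 191 and 194. Arrays of 1 group correlated at 0.993 to 0.995 over all probe sets and arrays of different groups at 0.970 to 0.975. The log2 difference between 3' and 5' probe sets, a sign of RNA quality, did not separate the groups for GAPDH (p = 0.6) or ACTB (p = 1, exact permutation tests, two-sided, 3 arrays against 3, where the smallest possible p is 0.1). Of the 12 marker genes of group 3 medulloblastoma that were measured, 9 had a DMSO mean above the array medians, with MYC at 11257 ± 335 and OTX2 at 6561 ± 426 (SD, n = 3), while NPR3, EYA1 and TRIM58 stayed below, at 71.5, 58.9 and 53.3. Of 10 leukocyte markers, 7 lay below the array medians in DMSO and none was called, and their summed intensity was 763 to 805 in DMSO and 775 to 807 in entinostat. Among 14 markers of fibroblasts and endothelium 8 lay below the medians, KDR and CLDN5 were called higher, and the sums were 1198 to 1290 against 1295 to 1346. The DMSO array 2 stood apart from its group. On it, 18 genes were more than 1 log2 unit above both other DMSO arrays and 3 below both. On the entinostat array 2, 5 genes were above and 0 below, on the entinostat array 1 it was 1 above and 5 below, and on the other 24 h arrays 0 or 1 above and 1 or 3 below. Many of the 18 and of the 5 belong to skeletal muscle, among them the troponin subunits TNNC2 and TNNI1 and the myosin light chain MYL1, so the counts over all genes, of genes with a larger change at 24 h and of muscle genes are also given without both arrays 2.

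After 24 h of entinostat the RNA of 3606 genes was higher (18.2%) and that of 2961 lower (15%), 6567 in all (33.2%), and 13208 were not called. Over probe sets the counts were 6993 higher (12.8%) and 6765 lower (12.4%), 13758 in all (25.2%). Most called changes were small, with a median size of 0.44 on the log2 scale. A rise of 1 log2 unit or more was seen for 558 genes (2.82%), and 171 genes fell by at least as much (0.865%). The larger changes were thus mostly rises, and their balance depended on how bright a gene was. Among 10422 genes with a mean log2 level below 7, 143 rose and 6 fell by at least 1 log2 unit. Among the 1951 genes with a mean of 10 or more, the counts were 35 and 24. A background remains in every intensity, the lowest of which is 36.7, so a dim gene has little room to fall and its fold change is understated. Over all genes the median log2 fold change was -0.02, and the 6 arrays of 9187 genes (46.5%) did not overlap between the groups. The largest changes named below were chosen among such genes, so their lack of overlap is no added result. Most list members named below are the largest called changes of their list, so their lack of overlap adds little either. Without both arrays 2, 2973 genes were higher and 2248 lower. The shares called depended on brightness. They were 10.3% higher and 4.59% lower below a mean log2 of 7, and 27.9% and 24.2% from 7 to 8. From 8 to 10 they were 27.3% and 28.5%, and at 10 or more 25.6% and 25.4%. Counts in the gene lists below stand against these shares. These are levels in the RNA of whole cultures, in which fewer cells with a transcript and less of it per cell cannot be told apart.

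**Figure D1:**
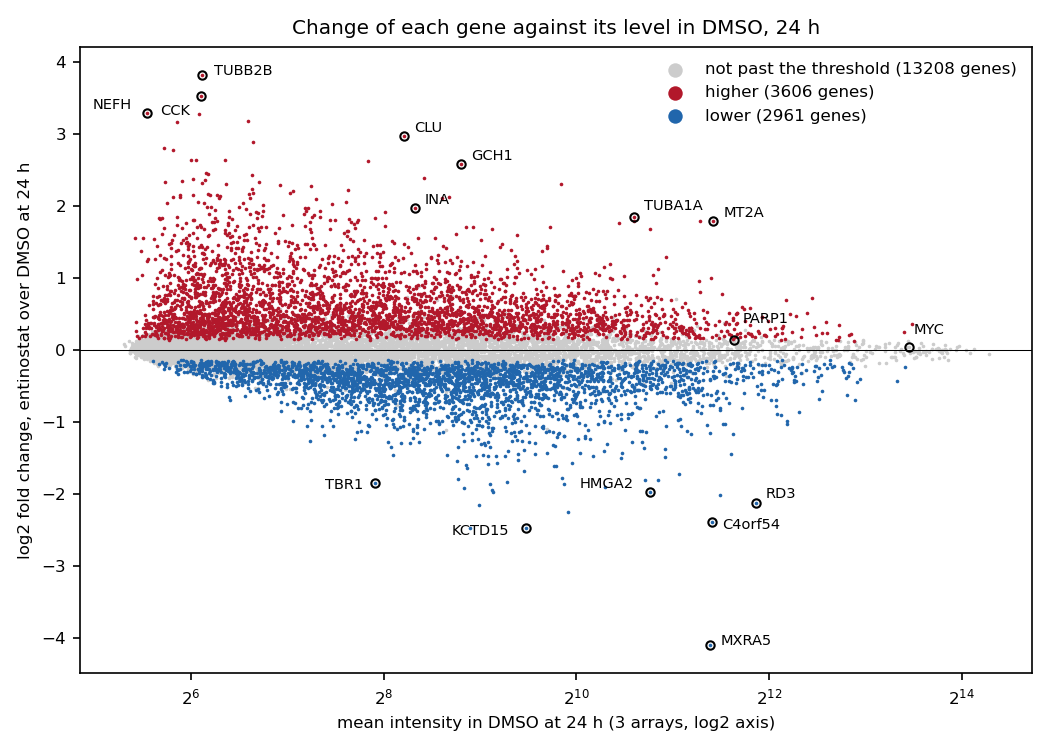
Each point is 1 of 19775 genes, with its mean intensity on the 3 DMSO arrays at 24 h on a log2 x axis and its log2 fold change, entinostat over DMSO, on the y axis; red points are the 3606 genes called higher, blue the 2961 called lower and grey the 13208 not called. Rises spread widest among dim genes, up to 3.81 for TUBB2B, and large falls lie among brighter ones, down to -4.09 for MXRA5.

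Of the 10523 genes read by several probe sets, 75 had probe sets called in both directions. For 2264 genes called higher that had several, no other probe set was called lower in 2230.

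The largest rises were mostly of genes that were dim in DMSO. TUBB2B, a beta-tubulin of developing neurons, gave 68.7, 67.8 and 71.3 on the DMSO arrays and 1017, 974 and 926 on the entinostat arrays. All entinostat arrays of TUBB2B lay far above all DMSO arrays, and its log2 fold change was 3.81 (SE 0.16, adjusted p = 1.28e-08), read by 1 probe set of the kind ending in _x_at, which can bind several genes. CCK, the precursor of the neuropeptide cholecystokinin, had intensities of 61.0, 82.2 and 63.7 in DMSO and 818, 737 and 808 in entinostat, a log2 fold change of 3.52 (SE 0.10, adjusted p = 1e-09). PKIB, an inhibitor of protein kinase A, went from 67.2, 72.9 and 63.7 to 697, 687 and 599, a log2 fold change of 3.28 (SE 0.09). MAN1A1, a Golgi mannosidase that trims N-glycans, went from 56.6, 59.8 and 56.7 to 541, 570.0 and 451, or 3.17 on the log2 scale (SE 0.09). Lack of overlap between the groups was a condition for naming these genes among the largest rises. In DMSO each was below or near the array median. FYTTD1, an mRNA export adaptor, had 95.1, 105 and 90.1 on the DMSO arrays against 991, 921 and 742, a log2 fold change of 3.18. CLU, a secreted chaperone, rose by 2.97, FKBP1B, a calcium channel regulator, by 2.89 and CALCB, a calcitonin gene-related peptide precursor, by 2.78. Further rises were those of TAFA4, a secreted neuronal protein, with 2.80, SPINK2, a serine protease inhibitor, with 2.64, and IER3, an immediate early gene, with 2.62. GCH1, the first enzyme of tetrahydrobiopterin synthesis, was already well above the median in DMSO at 401, 539 and 396 and reached 2628, 2782 and 2539, a log2 fold change of 2.59 (SE 0.13). THBS1, thrombospondin 1, had 2.64 by a probe set that can bind several genes and 0.47 without such probe sets. KIF5C, a neuronal kinesin, was called higher at 2.63 by a probe set of that kind, and without such probe sets its value was -0.04 (adjusted p = 0.763).

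In all, 38 genes had every DMSO array under its array's median and every entinostat array over its array's 75th percentile, and all 38 were called higher. The reverse held for 1 gene, TBR1, a transcription factor of glutamatergic neurons. TBR1 gave 233, 222 and 269 on the DMSO arrays and 67.1, 60.7 and 73.2 on the entinostat arrays, a log2 fold change of -1.85 (SE 0.08, adjusted p = 2.08e-08). Of all genes called higher, 765 had a DMSO mean below the array medians.

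**Figure D2:**
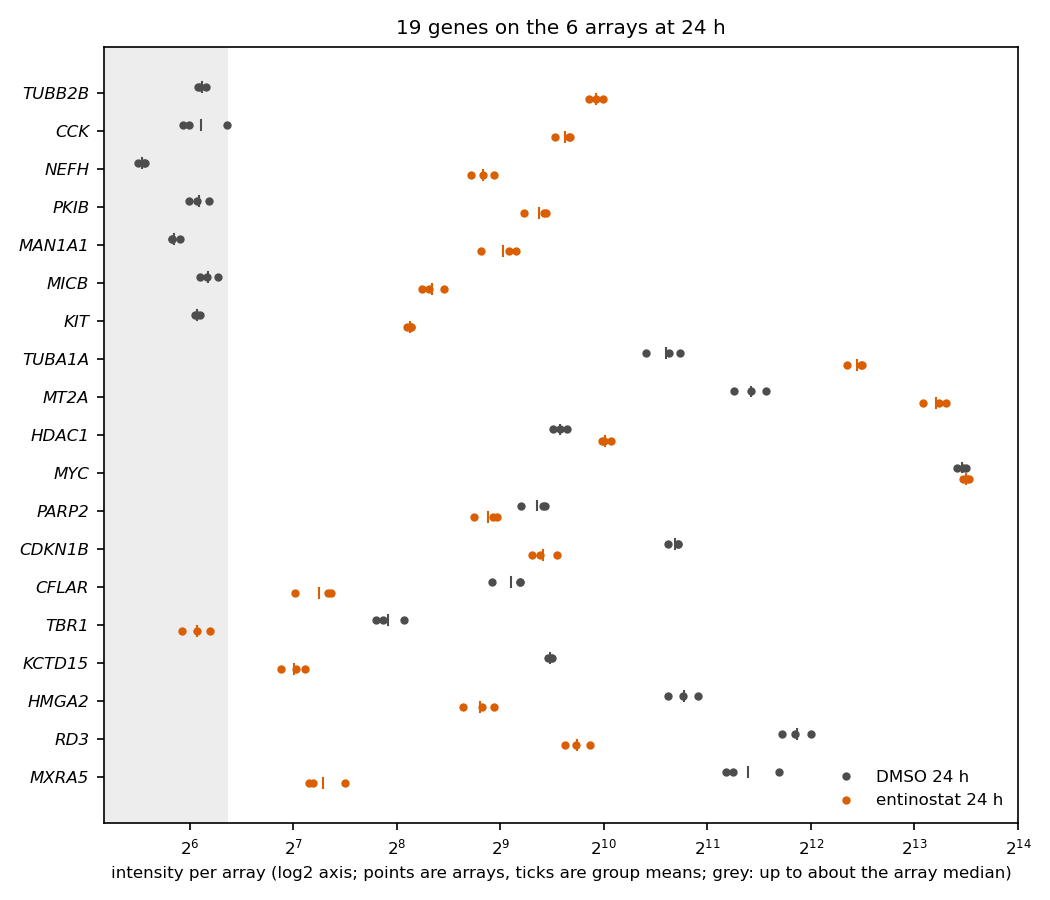
Intensity of 19 genes on each of the 6 arrays at 24 h, on a log2 x axis, with DMSO arrays in grey, entinostat arrays in orange and ticks at the group means; the shaded area reaches up to about the array median. The 3 entinostat arrays of the upper genes, from TUBB2B (1017, 974 and 926) to HDAC1 (1012, 1022 and 1070.5), lie to the right of all DMSO arrays, those of MYC overlap with DMSO, and those of PARP2 down to MXRA5 (146, 142 and 181) lie to the left.

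Promoter sequences are shown for genes at both ends of the range, as the 250 bases before the start of the gene in RefSeq (GRCh38.p14), on the strand of the gene from 5′ to 3′. Capitals mark the GC box, GGGCGG or on the other strand CCGCCC, a motif bound by SP family factors. TUBB2B lies at chr6:3227654-3227903, minus strand, and has 1 match; MAN1A1 at chr6:119349762-119350011, minus strand, has 4; MXRA5 at chrX:3346653-3346902, minus strand, and C4orf54 at chr4:99657829-99658078, minus strand, have none.
TUBB2B: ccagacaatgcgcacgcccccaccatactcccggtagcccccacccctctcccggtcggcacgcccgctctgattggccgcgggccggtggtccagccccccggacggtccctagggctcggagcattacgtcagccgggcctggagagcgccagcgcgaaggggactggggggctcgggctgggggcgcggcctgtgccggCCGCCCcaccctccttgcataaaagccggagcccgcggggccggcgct
MAN1A1: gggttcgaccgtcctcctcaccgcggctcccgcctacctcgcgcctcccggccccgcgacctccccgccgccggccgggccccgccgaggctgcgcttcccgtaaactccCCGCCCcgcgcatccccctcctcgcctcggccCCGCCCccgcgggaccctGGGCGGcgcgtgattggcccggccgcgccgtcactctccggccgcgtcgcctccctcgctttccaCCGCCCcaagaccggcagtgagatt
MXRA5: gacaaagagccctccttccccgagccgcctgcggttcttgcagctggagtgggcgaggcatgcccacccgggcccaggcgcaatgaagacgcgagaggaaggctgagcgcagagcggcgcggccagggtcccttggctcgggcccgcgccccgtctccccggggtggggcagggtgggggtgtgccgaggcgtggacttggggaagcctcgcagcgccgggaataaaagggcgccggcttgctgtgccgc
C4orf54: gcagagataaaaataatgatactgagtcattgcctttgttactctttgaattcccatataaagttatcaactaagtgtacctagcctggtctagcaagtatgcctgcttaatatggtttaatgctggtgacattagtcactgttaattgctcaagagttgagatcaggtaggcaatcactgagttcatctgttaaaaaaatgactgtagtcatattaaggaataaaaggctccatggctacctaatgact

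The promoter of MAN1A1 held 40 CpG dinucleotides and that of TUBB2B 28. Those of CCK and PKIB, also among the largest rises, held 10 and 18, with a GC content of 55.2% and 58.4%. The median over all genes with a promoter was 18 CpG dinucleotides and a GC content of 62.4%. In the promoter of MXRA5, the gene with the largest fall, there were 25, and in that of C4orf54 there were 0, with a GC content of 36.4%. A promoter was at hand for 15382 of the genes measured, of which 56.3% held a GC box. The share was 73.6% of the 435 such genes that rose by at least 1 log2 unit, 53.8% of the 132 that fell by as much and 50.4% of the 10020 that were not called. Among 29 of the genes that went from below the median to above the 75th percentile, 20 held it (69.0%). GC content moved with these shares, with medians of 68.0% in the genes that rose, 64.4% in those that fell and 60.8% in those not called, and so did the CpG count, with medians of 21, 18.5 and 15. Whether the motif or the base composition goes with the rises was not tested. The TATA box, TATAAA or TTTATA on the other strand, was found in 10.1% of the genes that rose, 7.58% of those that fell and 10.0% of those not called. The CCAAT box, CCAAT or ATTGG, was in 38.4%, 25.8% and 33.6%. The E-box CACGTG, the site of MYC and MAX and its own reverse complement, was in 8.51%, 10.6% and 7.02%, and the AP-1 site TGANTCA, which reads the same on both strands, in 3.22%, 6.82% and 5.74%. Over all genes with a promoter the shares were 8.31%, 34.1%, 7.83% and 5.03%. Such matches describe the letters in this window and do not show binding.

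Genes of neurons rose across several classes. Of 38 genes of the neuronal cytoskeleton and neurite growth, 21 were higher, 6 lower and 11 not called, and the list's median log2 fold change was 0.41. Over its 15 bright members, those with a mean log2 level of 8 or more over all arrays, the median was 0.05. The 6 lower were the membrane and actin linkers MARCKS and MARCKSL1, NRN1, a growth-promoting surface protein, the tubulin-binding STMN1 and STMN3, and VIM, the filament protein vimentin. NEFH, the heavy neurofilament chain, went from 47.2, 45.2 and 47.4 in DMSO to 419, 490.4 and 456 in entinostat, with every entinostat array above every DMSO array. Its log2 fold change was 3.29 (SE 0.13, adjusted p = 9.17e-09), and both of its probe sets were higher. The light neurofilament chain NEFL, from 68.8, 75.9 and 74.9 to 325, 320.1 and 331, had 2.15 (SE 0.12). INA, or internexin alpha, another neuronal intermediate filament, gave 324, 342 and 294 against 1269, 1389 and 1110.1 and a log2 fold change of 1.97 (SE 0.10). TUBA1A, an alpha-tubulin, was bright in DMSO at 1587, 1703 and 1358 and reached 5755, 5732 and 5216, or 1.85 on the log2 scale (SE 0.10), by a probe set that can bind related tubulins. NEFH, NEFL, INA and TUBA1A did not overlap between the groups on any array, as was so for 46.5% of all genes.

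Of 44 synaptic vesicle and exocytosis genes, 21 were higher and 2 lower, with a median of 0.21. SYNPR, a vesicle membrane protein, gave 72.0, 108 and 56.0 against 387, 387 and 252, a log2 fold change of 2.14 (SE 0.21). RAB3B, a GTPase of vesicle release, had 103, 102 and 107 in DMSO and 360.1, 343 and 308 in entinostat, or 1.70, with all 5 of its probe sets higher. PCLO, a scaffold of the presynaptic active zone, rose by 1.21, SYT11, a synaptotagmin, by 1.21 and CPLX3, a complexin, by 1.45. Among 30 neuropeptides and secretory granule proteins, 12 were higher, with CCK, CALCB (2.78), TAC1, the precursor of substance P (1.26), and chromogranin A, CHGA (1.05). The only one lower was GAL, the precursor of galanin, with 945, 947 and 957 against 479.8, 486 and 548, a log2 fold change of -0.91 (SE 0.06).

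Genes for electrical signalling were called in both directions. Of 37 potassium channel genes, 5 were higher (13.5%) and 5 lower (13.5%), and of 37 ionotropic receptors 5 (13.5%) and 2 (5.41%), against 18.2% and 15% of all genes. KCNF1, a potassium channel subunit, fell from 482, 825 and 384 to 107, 189 and 125, a log2 fold change of -1.97 (SE 0.25, adjusted p = 6.77e-05), and array 2 was the highest of both groups. KCNMB4, a subunit of calcium-activated channels, had 1.48 and KCNS3 1.49. GLRB, the beta subunit of the glycine receptor, rose by 1.03. CACNA2D1, an auxiliary calcium channel subunit, had a log2 fold change of -1.23. For sodium and calcium channels the count of 2 higher and 4 lower of 28 became 7 and 3 with the probe set of the strongest effect.

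Among 62 axon guidance genes, 20 were higher and 8 lower. The ephrins EFNB2 (1.59) and EFNB3 (1.52) and the semaphorin SEMA3C (1.53) rose, and SEMA6D (-1.33) and SEMA4C (-1.24) fell. Of 42 cadherins and related adhesion genes, 16 were higher and 2 lower, with a median of 0.12. PCDH17, a protocadherin, went from 61.2, 90.1 and 57.1 to 388, 398 and 256, a log2 fold change of 2.32 (SE 0.20). ALCAM, an adhesion molecule of the immunoglobulin family, had 1.77 and NRCAM, a neuronal member of that family, 1.48. CDH2, or N-cadherin, had 1.71, and 0.94 by its probe set of the strongest effect.

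Genes of neural progenitors, mostly transcription factors with some NOTCH receptors and ligands, were called in both directions. Of 49, 15 were higher (30.6%) and 7 lower (14.3%), and the median log2 fold change was -0.01. The 7 lower were HES5, NEUROG1, NOTCH1, POU4F1, SOX11, SOX4 and ZIC1. HEY1, a NOTCH target, gave 105, 107 and 102 on the DMSO arrays and 503, 574 and 501 on the entinostat arrays, a log2 fold change of 2.33 (SE 0.08). SOX9, a factor of glial and stem cells, went from 70.7, 76.3 and 71.7 to 253, 339 and 227, or 1.88 on the log2 scale. The ID proteins, inhibitors of basic helix-loop-helix factors, were higher too, with ID1 at 1.29 and ID3 at 1.70. All 3 entinostat arrays of these 4 genes were above all DMSO arrays.

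Metallothioneins, small proteins that bind zinc and copper and are induced by metals through the factor MTF1, were called higher in 9 of 10 list members, MTF1 and the zinc exporter SLC30A1 included, and none was lower. The median of the list was 1.78. MT2A gave 2734, 3041 and 2447 in DMSO and 10135, 9634 and 8691 in entinostat, a log2 fold change of 1.79 (SE 0.09, adjusted p = 2.87e-08). MT1F went from 664, 1033 and 1062 to 4512, 4577 and 4305, or 2.31 (SE 0.14). MT3, the form found in brain, had 175, 214 and 205 against 909.7, 857 and 1012, or 2.23 (SE 0.14), by a probe set not of the kind that can bind several genes. The groups were apart on every array for all of these genes. MT1X (1.79) and MT1E (2.02) were read by probe sets that can bind several metallothioneins, as were MT2A and MT1F, so how the rise divides between these near-identical genes is uncertain. The start regions of MT2A (chr16:56608334-56608583, plus strand) and MT1X (chr16:56682220-56682469, plus strand) are shown because they hold the motif of this class, with capitals for the core of the metal response element, TGCACNC or TGCGCNC, on either strand, of which MT2A had 7 matches and MT1X 4, and which can overlap a GC box.
MT2A: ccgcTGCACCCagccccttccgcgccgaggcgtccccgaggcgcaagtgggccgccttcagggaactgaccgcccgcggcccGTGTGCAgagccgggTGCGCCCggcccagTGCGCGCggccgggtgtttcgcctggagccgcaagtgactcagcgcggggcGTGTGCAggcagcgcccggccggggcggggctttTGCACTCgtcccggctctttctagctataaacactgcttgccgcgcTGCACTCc
MT1X: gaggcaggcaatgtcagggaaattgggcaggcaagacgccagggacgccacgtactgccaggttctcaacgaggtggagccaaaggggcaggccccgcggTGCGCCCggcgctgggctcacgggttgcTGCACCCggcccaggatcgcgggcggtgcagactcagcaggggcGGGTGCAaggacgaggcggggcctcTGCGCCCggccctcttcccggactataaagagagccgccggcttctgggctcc

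This core was found in 3 of 3 metallothionein promoters at hand, in 35.4% of the genes that rose by at least 1 log2 unit, in 33 of the 132 that fell by as much and in 29.7% of all. Among 46 redox, heme and iron genes, 14 were higher (30.4%) and 10 lower (21.7%). BLVRB, biliverdin reductase B, rose by 2.28, HMOX1, heme oxygenase 1, by 1.84, the iron exporter SLC40A1 by 1.35 and sulfiredoxin, SRXN1, by 1.31.

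Immediate early genes, which growth factors and stress switch on within minutes, were higher in 19 of 31 cases and lower in none, with a median of 0.46. EGR1, a zinc finger factor, gave 101, 84.1 and 93.9 in DMSO and 403, 390.4 and 349 in entinostat, a log2 fold change of 2.03 (SE 0.15). KLF4, another zinc finger factor, went from 51.6, 51.9 and 52.1 to 182, 189 and 184, or 1.83. DUSP5, a phosphatase of ERK, had 1.29. These 3 genes had no array in common range between the groups.

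Regulators of the cell cycle were divided. CDKN2B, or p15, rose from 43.5, 45.9 and 45.1 to 114, 120.1 and 116, a log2 fold change of 1.38 (SE 0.05, adjusted p = 9.17e-09). CDKN1A, or p21, gave 372, 472 and 353 against 541, 672 and 581, a smaller rise of 0.59 (SE 0.13, adjusted p = 0.00512). CDKN1B, or p27, fell from 1678, 1576 and 1684 to 749, 668 and 633, or -1.27 (SE 0.07, adjusted p = 8.32e-08). Among these 3 inhibitors of cyclin-dependent kinases, each had separate groups of arrays, in opposite directions for p15 and p27. Of 28 p53 targets, 8 were higher (28.6%) and 5 lower (17.9%), against 18.2% and 15% of all genes. Of the 28, 17 were bright, and among genes that bright 25.6% to 27.3% were higher and 25.4% to 28.5% lower. PLK2, a polo-like kinase, had 1.71, SESN2, a stress sensor, 0.79 and GADD45G -0.97.

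Genes of cell death also split. CFLAR, the caspase 8 inhibitor FLIP, fell from 583, 485 and 586 to 162, 129 and 165, a log2 fold change of -1.86 (SE 0.10, adjusted p = 5.59e-08), with 12 of its 14 probe sets lower, and had -0.75 without probe sets that can bind several genes. TNFRSF10B, the TRAIL receptor DR5, gave 712, 662 and 703 against 446, 420.2 and 395, or -0.72. BIK, a killer protein of the BCL2 family with only a BH3 domain, rose from 65.0, 66.7 and 69.1 to 182, 192 and 215, or 1.55 (SE 0.09). All DMSO arrays of FLIP and DR5 were above, and all of BIK below, the entinostat arrays. BID, which links death receptors to mitochondria, had -0.90, PMAIP1, or NOXA, 0.58 and APAF1, the core of the apoptosome, 0.72. In the BCL2 family 7 of 19 were higher (36.8%) and 2 lower (10.5%). Of 24 death receptor, caspase and inhibitor genes 6 were higher (25%) and 4 lower (16.7%), against 18.2% and 15% of all genes. Without probe sets that can bind several genes, the counts of these death receptor, caspase and inhibitor genes were 2 and 5.

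The RNA of the class I deacetylases also changed. HDAC1 gave 764, 729.8 and 798 in DMSO and 1012, 1022 and 1070.5 in entinostat, a log2 fold change of 0.44 (SE 0.09, adjusted p = 0.00324). HDAC3 went from 343, 300.3 and 358 to 576, 453 and 523 (0.63, adjusted p = 0.000646). HDAC2 had 2048, 2738 and 2193 against 3685, 2979 and 3022, a log2 fold change of 0.48 (adjusted p = 0.0119), and HDAC8 had 183, 197 and 188 against 159, 156 and 168, or -0.24 (adjusted p = 0.0145). The groups overlapped for none of the 4, but the calls of HDAC2 and HDAC8 rested on single arrays. Without DMSO array 1 HDAC2 had 0.39 (adjusted p = 0.0559) and without entinostat array 1 0.38 (adjusted p = 0.0565), and HDAC8 without DMSO array 2 had -0.21 (adjusted p = 0.0568) and without entinostat array 2 -0.21 (adjusted p = 0.0583). Of 33 members of class I deacetylase complexes, 10 were higher (30.3%) and 9 lower (27.3%), or 4 and 5 without probe sets that can bind several genes. RCOR1, the CoREST scaffold, rose by 0.70, MBD3, a NuRD subunit, had -0.51, and MTA1, another NuRD subunit, had -0.93, or -0.34 by its probe set of the strongest effect.

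Of 17 histone genes measured, 9 were higher and none lower, with a median of 0.51. The list holds replacement and linker histones together with core histones of the histone gene clusters, such as H2BC5 and H2BC4. H2BC5 gave 372, 519.7 and 399 against 1116, 1717 and 1147, a log2 fold change of 1.61 (SE 0.20), and H2BC4 90.9, 136 and 106 against 198, 230.2 and 170.5, or 0.85. Linker histone H1-2 had 0.71. All 3 had separate groups of arrays, but histone genes are near-identical and their probe sets may share transcripts. Of 29 Polycomb and DNA methyltransferase genes, 8 were higher (27.6%) and 8 lower (27.6%). DNMT3B had a log2 fold change of 0.94 and DNMT3A, the other de novo methyltransferase, -0.88. PCGF3 and PHF19, accessory proteins of Polycomb complexes 1 and 2, had -1.28 and -1.02.

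On the cell surface, MICB and MICA, stress ligands of the natural killer receptor NKG2D, were both higher. MICB gave 71.8, 77.4 and 68.4 on the DMSO arrays and 352, 318 and 303 on the entinostat arrays, a log2 fold change of 2.16 (SE 0.08, adjusted p = 3.97e-09), and MICA 64.2, 62.3 and 64.3 against 139, 131 and 109, or 0.98 (SE 0.08). Neither overlapped between the groups. HLA class I genes were read by probe sets that can bind several of them. HLA-E had 348, 281 and 263 against 822, 812 and 822, a log2 fold change of 1.47, HLA-B had 1.37 and HLA-C 1.09, and 9 of 19 class I and peptide loading genes were higher and 3 lower. Without probe sets of that kind, the count became 2 higher and 4 lower. ERAP2, a peptidase that trims class I peptides, was lower, at 165, 134 and 154 against 68.1, 59.9 and 59.2, or -1.27. Of 15 class II genes 7 were higher, with HLA-DQB1 at 1.10. In the interferon list, 14 of 42 were higher and 2 lower, and the extremes were IFI6, an interferon-induced mitochondrial protein, at 1.39 and USP18, the protease that removes ISG15, at -1.84.

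Of 38 receptor tyrosine kinases, 16 were higher and 1, ERBB2, was lower (-0.33), with a median of 0.11. KIT, the stem cell factor receptor, went from 66.3, 68.5 and 67.2 to 274, 282 and 282, a log2 fold change of 2.05 (SE 0.09). FGFR4 rose by 1.45 and FGFR3 by 1.07. KDR, a receptor of VEGF, had 54.7, 56.8 and 48.4 against 117, 115 and 97.8, or 1.04, at intensities near the array medians. KIT and KDR overlapped on no array, although both were dim in DMSO.

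Among lysosomal and metabolic genes there were rises and falls. Of 54 lysosomal genes 21 were higher (38.9%) and 10 lower (18.5%), against 18.2% and 15% of all genes. Of the 54, 38 were bright, and among genes that bright 25.6% to 27.3% were higher and 25.4% to 28.5% lower. ATP6V0E2, a subunit of the proton pump, gave 1.31, the sialidase NEU1 1.16 and LIPA, the acid lipase, 0.93. In glycolysis 11 of 30 were higher and 8 lower, with the neuronal isoform ALDOC at 1.67, the glucose transporter SLC2A3 at 1.56 and PKM, pyruvate kinase, at 1834, 1819.8 and 1887 against 3956, 3755 and 4446 (1.13). Of 37 genes of the ATF4 and unfolded protein response 15 were higher and 7 lower, among them EIF2AK3, or PERK, at 1.10 and CEBPB at 1.07. Of 47 contractile, caveolar and annexin genes 19 were higher and 7 lower. TAGLN2, a transgelin, went from 113, 139 and 113 to 609.8, 664 and 503, a log2 fold change of 2.28 (SE 0.12), and CD44, the hyaluronan receptor, from 876, 617 and 796 to 340.1, 259 and 244, or -1.44 (SE 0.16). The arrays of TAGLN2 and CD44 did not overlap between the groups, and they lay in opposite order.

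In the WNT, hedgehog, TGF-beta and BMP pathways 21 of 70 genes were higher (30%) and 16 lower (22.9%). BAMBI, a decoy receptor for BMP signals, had 105, 102 and 93.5 against 373, 339.6 and 295, a log2 fold change of 1.74 (SE 0.10), TGFBR3, a coreceptor, 1.25 and BMP6 1.11, while SMAD1, which carries BMP signals to the nucleus, had 486, 504 and 498 against 225, 222 and 250.5, or -1.10. The receptors and SMAD1 thus lay apart from DMSO in opposite directions. Of 30 sterol and fatty acid genes 11 were higher, with the sterol carrier STARD4 at 0.95 and the kinase PMVK at 0.94, and 6 lower, with ACAT2 at -0.94. Of 49 germ cell and cancer testis genes 5 were higher (10.2%) and 2 lower (4.08%), and 42 were not called. CTCFL, the germ line paralogue of CTCF, rose from 65.4, 60.7 and 63.0 to 167, 173 and 185 (1.47) and TEX15 from 128, 157 and 162 to 310.4, 314 and 303 (1.06), both without overlap between the groups. Of 27 HOX genes 3 were higher (11.1%) and none lower, and of 39 proteasome genes 12 were higher (30.8%) and 12 lower (30.8%). Oxidative phosphorylation had 5 of 54 higher (9.26%) and 10 lower (18.5%), with CYC1, or cytochrome c1, at -0.63. Of the 54, 53 were bright, and among genes that bright 25.6% to 27.3% were higher and 25.4% to 28.5% lower. Matrix and integrin genes had 13 of 62 higher and 11 lower, which became 6 and 11 among genes with a mean log2 level of 7 or more, and their largest rise was that of LAMA1, a laminin chain, with 1.93.

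The falls reached genes that were bright in DMSO. MXRA5, an extracellular matrix protein, had 2327, 2427 and 3308 on the DMSO arrays and 146, 142 and 181 on the entinostat arrays, a log2 fold change of -4.09 (SE 0.16, adjusted p = 7.26e-09). KCTD15, a regulator of neural crest formation, went from 725, 717 and 705 to 131, 118 and 138, or -2.48 (SE 0.07), with all 5 of its probe sets lower. C4orf54 had 2549.5, 2721 and 2884 against 513, 551 and 488, or -2.39 (SE 0.07). The spread between arrays of 1 group was small beside these falls. Lack of overlap between the groups was a condition for naming these genes among the largest falls. ARHGAP9, a GTPase-activating protein, had -2.47 and PRRX1, a homeobox factor of mesenchyme, -2.24. HMGA2, an architectural chromatin protein of stem cells and tumours, gave 1735, 1577 and 1927 against 451, 398 and 491, a log2 fold change of -1.97 with 4 of 9 probe sets lower, and -0.80 without probe sets that can bind several genes. IRAK1, a kinase of interleukin 1 signalling, had 2362, 1165 and 2012 against 534, 474 and 514, or -1.80, and -0.87 by its probe set of the strongest effect.

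A set of genes that mark group 3 medulloblastoma was lower or not called. Of 12 markers, 5 fell and none rose, the median was -0.22, and their summed intensity was 23696 to 26812 on the DMSO arrays and 19231 to 20737 on the entinostat arrays. IMPG2, a proteoglycan of the retina, gave 2738, 2708 and 3195 in DMSO and 739.8, 533 and 901 in entinostat, a log2 fold change of -2.02 (SE 0.15, adjusted p = 1.04e-06). GABRA5, the alpha 5 subunit of the GABA receptor, had 902, 928 and 943 against 272, 245 and 294, or -1.78 (SE 0.07, adjusted p = 1.16e-08). PALMD, palmdelphin, had 628, 352 and 695 against 141, 131 and 145, or -1.95, and -0.25 without probe sets that can bind several genes. None of the DMSO arrays of these 3 genes was as low as an entinostat array. MFAP4, a microfibril protein, had -1.47. OTX2, the homeobox factor of group 3 tumours, was at 6259, 6376 and 7049 in DMSO and 5970.2, 5434 and 5449 in entinostat, and its log2 fold change of -0.22 (adjusted p = 0.0312) lost its call in 3 of 6 refits that left out 1 array each. MYC itself gave 10900.0, 11306 and 11565 against 11828, 11331 and 11609. Its groups overlapped, with a log2 fold change of 0.04 (SE 0.05, adjusted p = 0.6). In the MYC, MAX and MXD network, 5 of 18 genes were higher (27.8%) and none lower, with MGA, a MAX dimerisation protein, at 0.49. Of the 18, 14 were bright, and among genes that bright 25.6% to 27.3% were higher and 25.4% to 28.5% lower.

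The photoreceptor genes that group 3 tumours express held 7 of 37 higher (18.9%) and 11 lower (29.7%), against 18.2% and 15% of all genes. RD3, a regulator of retinal guanylate cyclase, fell from 3676, 3384 and 4103 to 788, 848 and 933, a log2 fold change of -2.12 (SE 0.09, adjusted p = 1.67e-08). SAG, or arrestin 1, rose by 1.26 (SE 0.28), from 82.8, 112 and 100.4 to 133, 352 and 273. On entinostat array 1, SAG lay over 1 log2 unit below the other entinostat arrays, but above all DMSO arrays. GUCA1A, a calcium sensor of the cyclase, had 188, 148 and 308 against 88.6, 98.1 and 124, or -0.996 (SE 0.22).

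Markers of the astrocyte and oligodendrocyte lineages were mixed, with 2 of 13 higher and 3 lower, 7 below the array medians in DMSO, and summed intensities of 4350 to 4799 in DMSO and 2815 to 3168 in entinostat. OLIG2, a factor of oligodendrocyte precursors, was higher with 0.67, from 91.7, 124 and 111 to 195, 162 and 162. GJA1, or connexin 43, had 2369, 2186 and 2437 against 1144, 962 and 1021, a log2 fold change of -1.16 (SE 0.07), and SLC1A3, a glutamate transporter, had -0.83. The arrays of OLIG2 and GJA1 were separate in opposite directions.

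Many genes of RNA processing and ribosome assembly were lower, most of them by small steps. Splicing factors were lower in 33 of 65 cases and higher in 5, with a median of -0.21 against -0.02 for all genes. PTBP2, the neuronal polypyrimidine tract binding protein, had 917, 969 and 992 against 529, 518 and 584, a log2 fold change of -0.82 (SE 0.06). SRSF5 had -0.66 and SF3A1, a subunit of the U2 particle, -0.59. Of 49 genes of ribosome biogenesis and RNA polymerase I, 21 were lower and 6 higher, with a median of -0.21. UBTF, the factor that opens ribosomal DNA for transcription, gave 388, 371 and 386 against 181, 189 and 195, or -1.02 (SE 0.05). The arrays of PTBP2 and UBTF did not overlap between the groups. Of 56 nucleoporins, exportins and importins, 22 were lower and 7 higher, with a median of -0.17, and the largest fall was that of TNPO2, a transportin, at -1.11. Of 50 cytosolic ribosomal protein genes, 49 were not called and 1, RPLP2, was lower at -0.41. Without probe sets that can bind several genes, RPLP2 had -0.10 (adjusted p = 0.594).

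Genes of proliferation were lower in a part of the cases. In DNA replication and nucleotide supply 16 of 47 were lower and 6 higher, with a median of -0.09. MCM5, a subunit of the replicative helicase, went from 1174, 1108 and 1103 to 546, 423 and 471, a log2 fold change of -1.24 (SE 0.10, adjusted p = 1.23e-06), and its partner MCM7 had -0.76. CDC45, which joins the helicase, had -0.96. Of 46 mitotic genes 16 were lower and 6 higher, with CDC25B, the phosphatase that starts mitosis, at -0.67 and the kinesins KIF18A at 0.92 and KIF4A at 0.73. The DMSO arrays of MCM5 were all above its entinostat arrays.

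**Figure D3:**
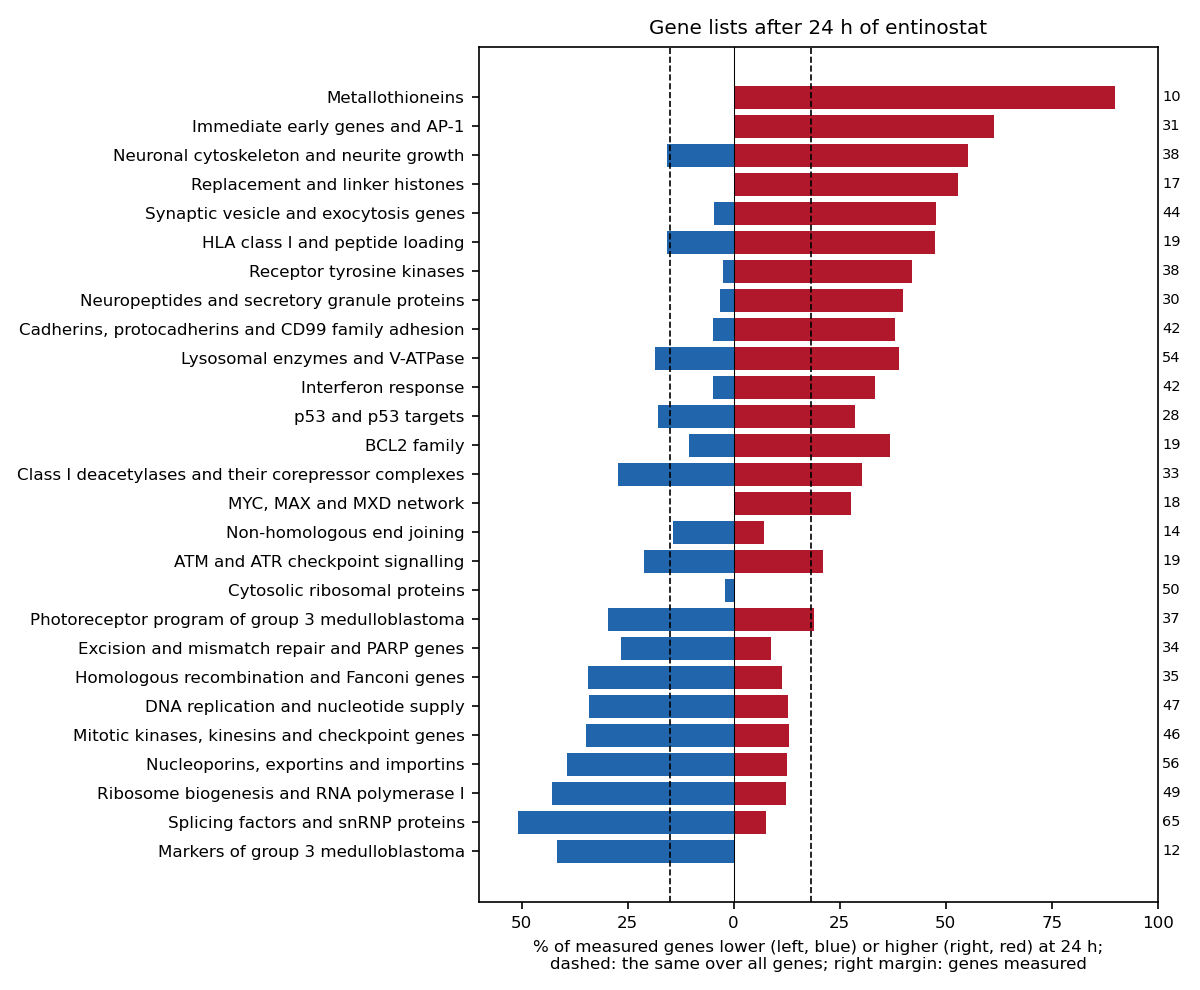
For each of 27 gene lists, the share of measured genes called higher (red, to the right) and lower (blue, to the left) at 24 h in percent, with dashed lines at the shares of all genes, 18.2% and 15%, and the number of genes measured at the right. The red bars are longest for metallothioneins, where 9 of 10 were higher, and the blue bars for splicing factors, where 33 of 65 were lower. The list labelled replacement and linker histones also holds core histones of the gene clusters.

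DNA repair genes were of interest to the study, which combined entinostat with PARP inhibition. PARP1 gave 2971, 3405 and 3167 in DMSO and 3536, 3655 and 3335 in entinostat. Its groups overlapped and the log2 fold change of 0.14 (SE 0.06, adjusted p = 0.107) was not called, whereas without DMSO array 2 it was 0.19 (adjusted p = 0.0391). PARP2 had 691, 589.5 and 679.6 against 487, 431 and 501, a log2 fold change of -0.47 (SE 0.09, adjusted p = 0.00173), with all 3 of its probe sets lower and no overlap between the groups. BRCA1, a core protein of homologous recombination, had 409, 406 and 403 against 352, 361 and 341, a log2 fold change of -0.21 (adjusted p = 0.0133), which without entinostat array 3 was -0.19 (adjusted p = 0.0518). Of 35 genes of homologous recombination and the Fanconi pathway, 12 were lower and 4 higher, with a median of -0.08. FANCG, of the Fanconi core complex, gave 512, 521 and 565 against 376, 300.1 and 284, or -0.74 (SE 0.10), and WRN, the Werner syndrome helicase, 304, 300.0 and 315 against 216, 210.3 and 197, or -0.56. UBE2T, the ubiquitin-conjugating enzyme of the Fanconi pathway, rose by 0.53. For FANCG and WRN all DMSO arrays were above all entinostat arrays.

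Of 14 end joining genes, 11 were not called. XRCC6, or Ku70, had 4335, 4384 and 4317 against 3899.9, 3907 and 3914, a log2 fold change of -0.15 (adjusted p = 0.0199), lost in 4 of 6 refits without 1 array. LIG4, the ligase of this pathway, had 146, 164 and 153 against 235, 249 and 221, or 0.61 (adjusted p = 0.0482), and lost its call in each of the 6 refits, with adjusted p from 0.0739 to 0.131. For LIG4 all entinostat arrays were above all DMSO arrays, and the SE was 0.21. The values not called were -0.11 for XRCC5, or Ku80, -0.12 for XRCC4 and 0.02 for PRKDC, the kinase that Ku recruits. By the probe set of the strongest effect XRCC5 had -0.32 (adjusted p = 0.000245) and XRCC4 -0.45 (adjusted p = 0.00292), both lower. Of 19 genes of ATM and ATR signalling, 4 were higher (21.1%) and 4 lower (21.1%), against 18.2% and 15% of all genes. Of the 19, 15 were bright, and among genes that bright 25.6% to 27.3% were higher and 25.4% to 28.5% lower. The kinases themselves were not called, with -0.16 for ATM and 0.04 for ATR, although ATM was lower by its probe set of the strongest effect, at -0.22 (adjusted p = 0.0202). CHEK1, the kinase below ATR, had 388, 396 and 377 against 344, 327 and 337, a log2 fold change of -0.20 (adjusted p = 0.00958), while CHEK2 had -0.21 (adjusted p = 0.0544). Without both arrays 2, CHEK1 had -0.17 (adjusted p = 0.109). H2AX, the histone that is phosphorylated at breaks, had 2463, 2303 and 2408 against 3277, 3448 and 3479, or 0.51 (adjusted p = 0.00955), and 0.47 (adjusted p = 0.0805) without both arrays 2. Among 34 genes of excision and mismatch repair and PARP genes, 9 were lower (26.5%) and 3 higher (8.82%), with a median of -0.06.

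Some changes were larger at 24 h than at 48 h, by the interaction of treatment and time, which 380 genes passed (1.92%). Of these, 152 genes (0.769%) were called at 24 h with the larger change there, 100 of them higher and 52 lower at 24 h. By the same rule, 124 genes called at 24 h had the larger change at 48 h. At 48 h 47 of the 152 were called in the same direction, 26 in the opposite one and 79 in neither. Of the 10 with the largest difference, 6 kept the interaction in all 6 refits that left out 1 array each. NEFH was one of them, with 3.29 at 24 h against 1.60 at 48 h on the log2 scale (interaction adjusted p = 0.00242). NFIB, a nuclear factor of neural development, went from 1993, 2174 and 2204 in DMSO to 1228, 957 and 1065 in entinostat at 24 h, a log2 fold change of -0.98 (SE 0.09), with 8 of its 9 probe sets lower, and had 0.00 at 48 h (interaction adjusted p = 0.00663). PCDH8, a protocadherin, had 45.4, 48.7 and 56.3 against 98.1, 103 and 96.9 at 24 h, or 0.99, and -0.03 at 48 h (interaction adjusted p = 0.00514). At 24 h neither NFIB nor PCDH8 overlapped between the groups. NPNT, a matrix ligand of integrins, had 0.85 and -0.23 (interaction adjusted p = 0.00917), and ATOH8, a basic helix-loop-helix factor, -1.60 and -0.20 (interaction adjusted p = 0.0156), with -0.78 at 24 h by the probe set of the strongest effect. Without both arrays 2, NPNT (interaction adjusted p = 0.0517) and ATOH8 (0.0551) did not pass. CCDC120 had -0.50 and 0.43 (interaction adjusted p = 0.0189). The interaction of SALL1, C6orf141 and SNHG4 was lost in 5 of the 6 refits and that of C11orf96 in all 6. In place of the 152 genes there were 50 without DMSO array 1, 76 without DMSO array 2, 48 without entinostat array 2, 52 without entinostat array 3 and 26 without both arrays 2.

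**Figure D4:**
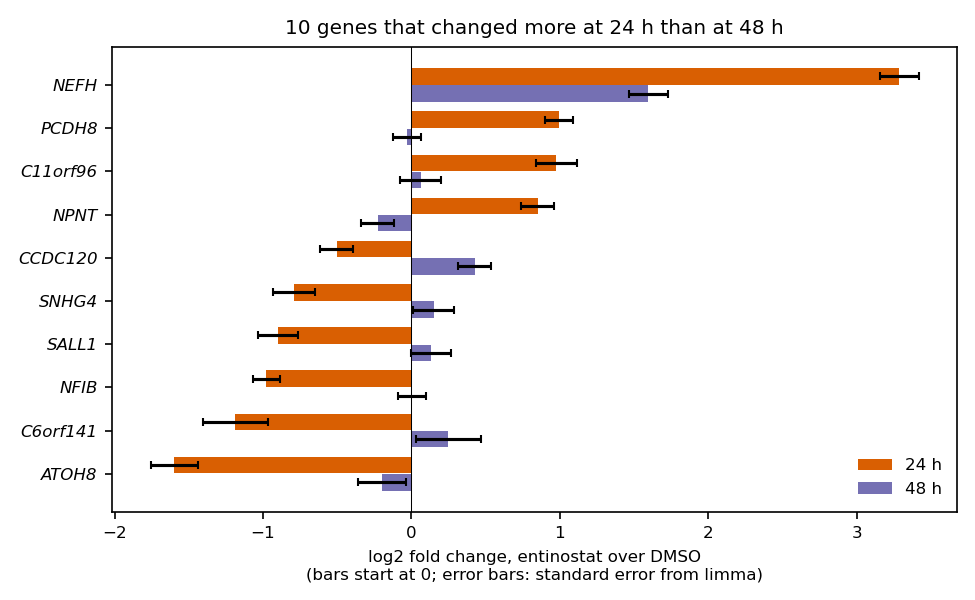
Log2 fold change of entinostat over DMSO at 24 h (orange) and 48 h (purple) for the 10 genes with the largest excess at 24 h, with bars from 0 and error bars of 1 standard error from limma. NEFH is at 3.29 and 1.60, NFIB at -0.98 and 0.00 and CCDC120 at -0.50 and 0.43.

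Skeletal muscle genes were looked at because they were among the genes high on the arrays 2, in a list of 37 genes put together after the values had been seen. Of the 35 measured, array 2 was the highest DMSO array for 30 and the highest entinostat array for 28, against 33.4% and 33.6% of all genes. MYL1, a myosin light chain, gave 143, 836 and 381 in DMSO and 221, 1032 and 435 in entinostat. TNNC2, a fast troponin C, gave 374, 1355 and 592 against 371, 1104 and 525. TNNI1, a slow troponin I, gave 156, 559 and 172 against 144, 497 and 207. For all 3 genes the groups overlapped, and array 2 was the highest of its group. MYOD1, the factor that sets the muscle fate, was above the 75th percentile in both groups, at 1818, 2258 and 1753 in DMSO and 666, 841 and 738 in entinostat. All entinostat arrays of MYOD1 were below all DMSO arrays, with a log2 fold change of -1.37 (SE 0.11, adjusted p = 1.56e-06), and without both arrays 2 it was -1.35 (adjusted p = 9.5e-06). MYOG, or myogenin, which acts after MYOD1, had 327, 614 and 323 against 142, 269 and 194, a log2 fold change of -1.04 (adjusted p = 0.00798), and -0.97 (adjusted p = 0.00167) without both arrays 2. In the list 2 genes were higher and 4 lower, and without both arrays 2 there were 4 and 4. How muscle transcripts come to differ between arrays of 1 group was not tested.

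**Figure D5:**
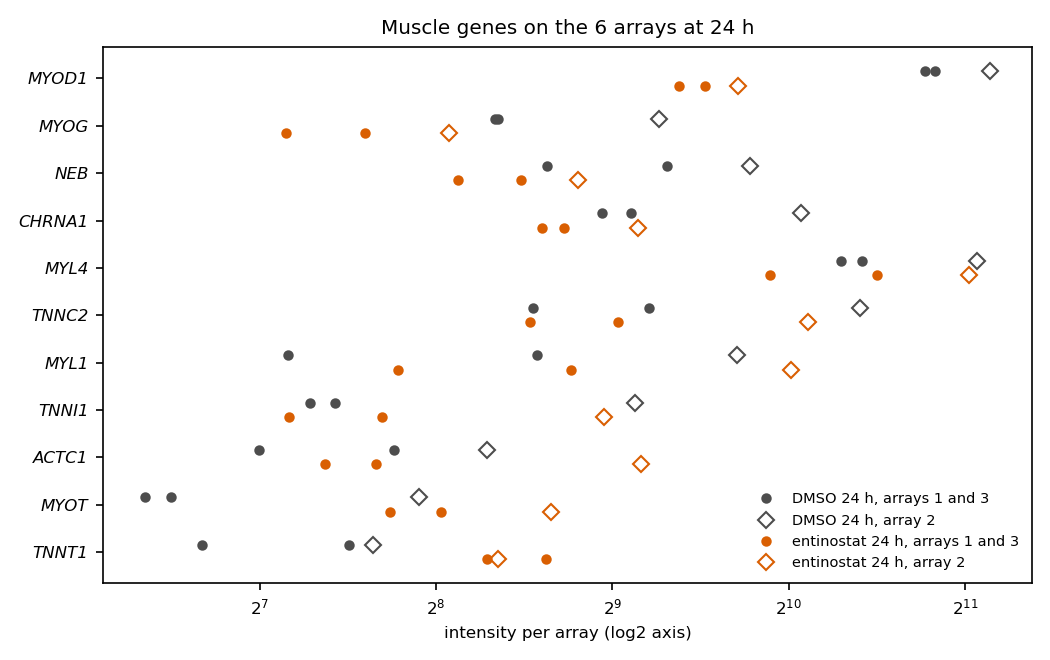
Intensity of 11 skeletal muscle genes on the 6 arrays at 24 h, on a log2 x axis, with filled circles for arrays 1 and 3, open diamonds for array 2, grey for DMSO and orange for entinostat. The diamond is the highest array of its group in all but 1 case, that of TNNT1 in entinostat, and MYOD1 and MYOG are lower in entinostat (-1.37 and -1.04).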

How the data were processed

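The files hold 1 intensity per probe set and array on a linear scale, as deposited, which the authors normalised across arrays with GCRMA per the labels (version not given in the sources used here), and log2 was taken here, although the methods already name a log2 step. A background remains in each value, so fold changes of dim genes are understated. From 54675 probe sets, 62 controls were left out and 2 empty cells were skipped. Single gene symbols were found for 41091 probe sets through the platform annotation, several for 1801 and none for 11721, and the last kinds name no gene. The fit used limma 3.58.1 in R 4.3.3 on the 12 arrays together, with a coefficient for each group, so that the 48 h arrays share in the estimate of spread. Entinostat was compared with DMSO at 24 h, and the interaction of treatment and time was tested. The Benjamini-Hochberg adjustment covered every probe set tested, with a threshold of 0.05. Each gene was read at its probe set of the highest mean log2 level. The p-values measure the spread between the 3 cultures of a group, which per the methods are biological replicates, and the number of arrays limits the precision.

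Members and lists, 56 in number besides the muscle genes, were chosen with earlier results of these data known. Named are the 15 largest rises and falls among called genes without overlap of arrays, the 10 largest each way at a DMSO mean log2 of 10 or more, the 10 largest excesses at 24 h, up to 5 called members per list, up to 10 genes that crossed from below the array median to above the 75th percentile or back, and the genes the study names, of which the text gives a part. NPR3, EYA1, TRIM58, MYL1, TNNC2, TNNI1 and ERBB2 fall outside this rule and were chosen after their values were seen. The same holds for MARCKS, MARCKSL1, NRN1, STMN1, STMN3 and VIM, named as the lower members of their list, and for MTF1 and SLC30A1. It also holds for HES5, NEUROG1, NOTCH1, POU4F1, SOX11, SOX4 and ZIC1, the lower members of the neural progenitor list. Same-numbered arrays of the groups had deviations correlated at 0.053, 0.202 and 0.172, and arrays of unlike number at -0.210 to 0.061. The titles do not say what arrays of the same number share. The main fit did not pair the arrays by number, and a fit with a block for the number was an alternative. Promoters were the 250 bases before the start of the gene in a RefSeq table of 27305 (GRCh38.p14), matched by Entrez gene identifier. As alternatives, probe sets under a mean log2 of 7 were dropped, and further settings were 30 subtracted from each value, centred arrays, quantile normalization, the 24 h arrays alone, an intensity trend with a robust prior, a block for the replicate number, the probe set of the strongest effect, probe sets not ending in _x_at or _s_at, a stricter threshold and each array left out in turn. Leaving out both 24 h arrays of number 2 was chosen later, with the data in view. The scripts were tested on simulated data.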

Additional observations from a re-analysis of the deposited data

Results flagged for a closer look

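Of 311 named genes, 26 had a treatment effect that differed between 24 h and 48 h by the interaction test of limma (adjusted p under 0.05), given here as the log2 fold change at 48 h minus that at 24 h. Of these, 17 had the larger change at 24 h. The 10 genes named for the largest excess at 24 h are in both counts because their choice required it. Neither count is therefore a result about the named genes. Over all genes, 380 passed the interaction (1.92%). Genes less high, or more low, at 48 h were NEFH (-1.69), MFAP4 (-1.44), NPNT (-1.08), PCDH8 (-1.02), C11orf96 (-0.91), USP18 (-0.70), ASNS (-0.67), KIF18A (-0.60), GAL (-0.59), CALCB (-0.58), CDKN2B (-0.38) and CHEK1 (-0.35). Genes less low, or more high, at 48 h were SYNPR (1.55), C6orf141 (1.44), ATOH8 (1.40), SALL1 (1.03), BLVRB (1.00), NFIB (0.98), ID1 (0.95), SNHG4 (0.94), CCDC120 (0.93), IER3 (0.83), IFI6 (0.74), HMGA2 (0.63), PSMG4 (0.46) and U2AF2 (0.43). The synaptic vesicle protein SYNPR and the early response gene IER3 thus had rises that were larger at 48 h, and the fall of MFAP4 and USP18 was deeper at 48 h. The probe sets of C11orf96, ASNS, PSMG4 and U2AF2 can bind several genes, and without such probe sets these genes were not called at 24 h. No gap rule for single arrays that stand apart was used to flag genes here. The Results do count, for each array at 24 h, genes more than 1 log2 unit from both others of its group.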

How the results depend on the processing

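The counts of genes higher (3606) and lower (2961) stayed within 1.5 times under every setting, with 3184 to 3354 higher and 2454 to 2678 lower when 1 array of the 24 h groups was left out, and 2973 and 2248 without both arrays 2, a setting chosen after seeing the data. With 30 subtracted from every value, 853 genes rose by at least 1 log2 unit in place of 558. Without probe sets that can bind several genes, 4487 probe sets were higher and 4264 lower in place of 6993 and 6765, since fewer were tested, and at an adjusted p under 0.01, 4362 were lower. The 152 genes with the larger change at 24 h became 271 with the filter at a mean log2 of 7, 21 with 30 subtracted, 21 at an adjusted p under 0.01, 48 to 110 with 1 array left out (50 without DMSO array 1, 76 without DMSO array 2, 48 and 52 without entinostat arrays 2 and 3), and 26 without both arrays 2. With the replicate block, 3677 genes were higher, 2993 lower and 160 larger at 24 h, and among the calls at 24 h named in the text this fit changed those of CHEK2 (adjusted p = 0.0494) and OTX2 (0.0508). Of the 10 largest interactions it ended that of SNHG4 (0.0638). Of 303 named genes called, 279 kept their call whichever array was left out. The sign turned for SCN3A with its probe set of the strongest effect (0.88), and without probe sets that can bind several genes for KIF5C (-0.039), C11orf96 (-0.27), JARID2 (-0.047), SMUG1 (-0.18), RRP12 (-0.013), NUP88 (0.091) and MERTK (-0.032). Among genes not called, ATR had -0.013 to 0.096 and PRKDC -0.10 to 0.203 with 1 array left out, and ATM had 0.043 without both arrays 2. The causes were not tested.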
